A study of Mus musculus with 15 samples.

Results

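The genes described here are Mitf, the transcription factor that directs pigment cell identity, and 9 genes whose products make melanin or build the organelle that holds it: Tyr, Tyrp1, Dct, Pmel, Mlana, Gpr143, Slc45a2, Oca2 and Slc24a5. They were followed across 5 groups of cultured mouse melanocytes. The genes were chosen by name, with earlier results of these data known. A gene was used where the array annotation tied a probe set to its symbol alone. This gave 9 of the 10 genes among 22180 genes tested, each on 1 probe set. Slc24a5 was listed only on probe sets annotated to another gene as well, and it was not analysed here.

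All cells were of one immortal line, melan-Ink4a-Arf-1, also labelled melan-a, from mice homozygous for Cdkn2a tm1RDp, a mutation of the Ink4a-Arf tumour suppressor locus, so every group carried it. Every culture grew at 37 °C in RPMI 1640 medium with 10% serum, 200 nM of the phorbol ester TPA and 200 pM cholera toxin, an agent that raises cyclic AMP. Normoxia meant ambient air with 10% CO2, or about 21% oxygen, in 3 cultures. Cells of the remaining 4 groups, again 3 cultures each, spent 24 h at 1% oxygen, 5% CO2 and 94% nitrogen, so oxygen and CO2 changed together. One was a hypoxia control, one was labelled a negative control, and the other two received siRNA 1 or siRNA 6 against Hif1a, the oxygen-regulated subunit of the hypoxia-inducible factor, 24 h before hypoxia. The labels used here do not say what the cells of either control received. RNA was measured on 15 Affymetrix arrays, and all levels below are log2 intensities, which cannot be set against each other between probe sets.

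Melanin is made in melanosomes, the lysosome-related organelles of pigment cells. Tyrosinase (Tyr) oxidises tyrosine in the rate-limiting step, and its relatives Dct and Tyrp1 act on later intermediates of the black-brown pigment eumelanin. Pmel forms the fibrils on which pigment settles, and the transporters Slc45a2 and Oca2 help keep the organelle at a pH at which tyrosinase works. Mitf binds E-box motifs, in particular the M-box, in the promoters of many of these genes, and the melanocyte form of Mitf is itself switched on through cyclic AMP and Creb, Sox10 and Pax3. Mice without functional Mitf lack melanocytes, and mutations in Tyr, Oca2, Tyrp1 and Slc45a2 underlie forms of albinism.

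Promoter windows from 250 bases before to 50 bases after an annotated transcription start (RefSeq, GRCm38.p6) were matched to 5 of the 9 measured genes. They are shown because Mitf and the hypoxia-inducible factor are known to bind short DNA motifs, and the levels of these genes are compared below. Capitals mark matches, on either strand, to 4 motifs: the M-box core TCATGTG, the E-box CATGTG that lies within it, the hypoxia response core ACGTG, and the cyclic AMP response element TGACGTCA. The windows are Tyr at chr7:87493463-87493762 (minus strand), Tyrp1 at chr4:80833963-80834262 (plus), Dct at chr14:118052197-118052496 (minus), Oca2 at chr7:56239509-56239808 (plus) and the last of 3 windows of Mitf at chr6:97991533-97991832 (plus), each written 5′ to 3′ on the strand of its gene.
Tyr: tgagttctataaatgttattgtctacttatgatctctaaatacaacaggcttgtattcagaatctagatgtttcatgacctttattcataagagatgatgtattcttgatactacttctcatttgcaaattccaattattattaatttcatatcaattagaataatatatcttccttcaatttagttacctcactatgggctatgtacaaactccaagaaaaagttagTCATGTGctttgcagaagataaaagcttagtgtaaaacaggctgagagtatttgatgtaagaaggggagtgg
Tyrp1: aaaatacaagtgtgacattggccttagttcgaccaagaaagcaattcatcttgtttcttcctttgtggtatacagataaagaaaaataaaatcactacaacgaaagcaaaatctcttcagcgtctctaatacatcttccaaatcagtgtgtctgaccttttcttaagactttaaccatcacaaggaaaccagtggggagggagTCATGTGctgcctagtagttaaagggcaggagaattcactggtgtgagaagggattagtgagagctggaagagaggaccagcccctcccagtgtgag
Dct: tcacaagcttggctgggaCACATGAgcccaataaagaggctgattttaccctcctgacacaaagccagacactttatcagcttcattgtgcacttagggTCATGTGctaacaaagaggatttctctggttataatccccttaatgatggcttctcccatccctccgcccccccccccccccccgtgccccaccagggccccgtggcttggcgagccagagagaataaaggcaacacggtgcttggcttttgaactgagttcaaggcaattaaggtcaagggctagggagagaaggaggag
Oca2: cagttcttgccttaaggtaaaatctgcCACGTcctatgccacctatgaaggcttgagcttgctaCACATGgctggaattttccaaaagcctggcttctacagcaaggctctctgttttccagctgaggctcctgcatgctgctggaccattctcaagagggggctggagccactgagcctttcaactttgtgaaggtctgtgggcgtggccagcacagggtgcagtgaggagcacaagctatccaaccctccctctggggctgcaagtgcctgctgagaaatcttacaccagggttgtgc
Mitf: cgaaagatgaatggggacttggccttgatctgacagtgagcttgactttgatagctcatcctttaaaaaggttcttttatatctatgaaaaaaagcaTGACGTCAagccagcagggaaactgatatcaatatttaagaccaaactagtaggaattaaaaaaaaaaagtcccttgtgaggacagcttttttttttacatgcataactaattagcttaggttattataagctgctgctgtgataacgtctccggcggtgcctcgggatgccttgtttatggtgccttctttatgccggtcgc

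The M-box core began 22 bases upstream of the start in Tyr and 47 bases upstream in Tyrp1. Dct held it 151 bases upstream and again, on the other strand, 232 bases upstream. This core was found in 3.77% of the 32851 windows of the whole table. Oca2 held the shorter CATGTG, present in 14.15% of windows, and ACGTG, present in 19.62%, both on the reverse strand, 186 and 223 bases upstream. The printed Mitf window held TGACGTCA, found in 1.79% of windows, 153 bases upstream, and another Mitf window held ACGTG on the reverse strand, 172 bases upstream. These are matches of letters and not measured binding sites. Mitf has several start sites, and its single probe set gives 1 level for the gene.

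Hif1a, the target of both siRNAs, was read first as a check of the labels. It read 10.34 ± 0.03 under normoxia (SD, n = 3 in this and every group), 10.59 ± 0.05 in hypoxia control cells, 10.63 ± 0.06 in negative control cells, 8.65 ± 0.09 with siRNA 1 and 8.93 ± 0.04 with siRNA 6. The siRNA groups thus held 25.3% and 30.7% of the negative control's Hif1a signal, and siRNA 1 left less than siRNA 6 (log2 difference -0.28, adjusted p = 0.001 by limma). A second, dimmer Hif1a probe set, with a mean of 5.40, differed from the negative control by -0.01 with siRNA 1 and -0.07 with siRNA 6.

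The cells carried the melanocyte markers, and these are largely the genes under study. The mean of 7 melanocyte markers lay between 11.2 and 12.3 on every array, and Sox10, the marker that is not a melanin gene, read 11.23 in normoxia and 10.61 with siRNA 1. Of the other cell types, 6 keratinocyte markers had group means from 5.31 to 6.86 and 5 endothelial markers from 3.96 to 6.77. Among leukocyte markers Ptprc, Csf1r and Adgre1 stayed between 4.43 and 6.29, while the lysosomal protein gene Cd68 went from 7.93 in normoxia to 9.65 with siRNA 1. Among 4 measured Schwann cell and neural crest markers, Ngfr went from 8.19 in normoxia to 10.03 with siRNA 1 and 9.73 with siRNA 6, S100b from 9.54 to 7.40 and 8.47, and Erbb3 from 11.75 to 10.73 and 10.69. Of 7 fibroblast markers, the brightest, Col1a1, read 9.35 in normoxia and 7.96 with siRNA 1. The others differed less between these groups, with Col1a2 at 7.59 and 7.12 and Thy1 at 7.49 and 7.15. Col3a1 read 6.92 and 6.81, Pdgfra 5.68 and 5.56, Dcn 5.21 and 5.13, and Lum 4.39 and 4.34. The part of these shifts in the results below was not tested, and fewer cells of a type and less RNA per cell cannot be told apart in such bulk samples.

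In the hypoxia control, 6 of the 9 genes fell against normoxia and none rose, while 11.2% of all genes tested were lower and 9.87% higher at the same threshold (limma, adjusted p under 0.05 over all genes). Their median log2 change was -0.30, and that of all genes was close to 0. Gpr143 fell by 1.00, Slc45a2 by 0.89, Oca2 by 0.64, Mlana by 0.41, Pmel by 0.30 and Tyr by 0.24 on the log2 scale. Mitf, Tyrp1 and Dct did not pass the test. The fall of Tyr rested on the full set of arrays: without any one of the 3 normoxia arrays or of hypoxia control arrays a and b its adjusted p ranged from 0.0548 to 0.1003.

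The negative control was lower still. Against the hypoxia control 8 of 9 genes fell, with a median of -0.58, where 7.51% of all genes were lower and 7.8% higher. Mlana fell by 0.92, Oca2 by 0.87 and Tyr by 0.74. Pmel fell by 0.68, Slc45a2 by 0.58, Gpr143 by 0.56, Mitf by 0.39 and Dct by 0.38. Tyrp1 changed by -0.05 (adjusted p = 0.611). Both groups were hypoxic, so this difference lay between the controls themselves. Against normoxia the negative control was lower for 8 of 9 genes with a median of -0.99, where 15.7% of all genes were lower and 14.6% higher.

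With siRNA 1, 6 of the 9 genes fell against the negative control and none rose, with a median of -0.18, where 14.8% of all genes were lower and 20.2% higher. Oca2 fell by 1.18, Mitf by 0.93, Tyr by 0.91 and Gpr143 by 0.76, and Dct and Tyrp1 by smaller amounts. With siRNA 6 the same comparison gave 4 genes that rose, Mlana, Slc45a2, Pmel and Dct, and 1 that fell, Gpr143, with a median of 0.14, where 11.9% of all genes were lower and 17% higher. Both comparisons use the same 3 negative control arrays. The direction with siRNA 6 depended on the control used. Against the hypoxia control, Tyr (-0.86), Gpr143 (-0.78), Oca2 (-0.73), Mitf (-0.42) and Pmel (-0.26) were lower with siRNA 6. Slc45a2 (0.19) was higher, and Dct, Mlana and Tyrp1 did not pass the test. Shares over all genes were not counted for that comparison.

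Set directly against each other, siRNA 1 was lower than siRNA 6 for 9 of 9 genes, with a median of -0.69, where 13.4% of all genes were lower and 14.5% higher. The differences ran from -1.32 for Oca2 to -0.16 for Tyrp1, so the groups transfected against the same target did not give the same pigment gene levels. Against normoxia, siRNA 1 was lower for 9 of 9 genes with a median of -1.35 (17.4% of all genes lower, 21.7% higher). siRNA 6 was lower than normoxia for 8 of 9 with a median of -0.55 (13.1% lower, 17% higher).

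**Figure D1:**
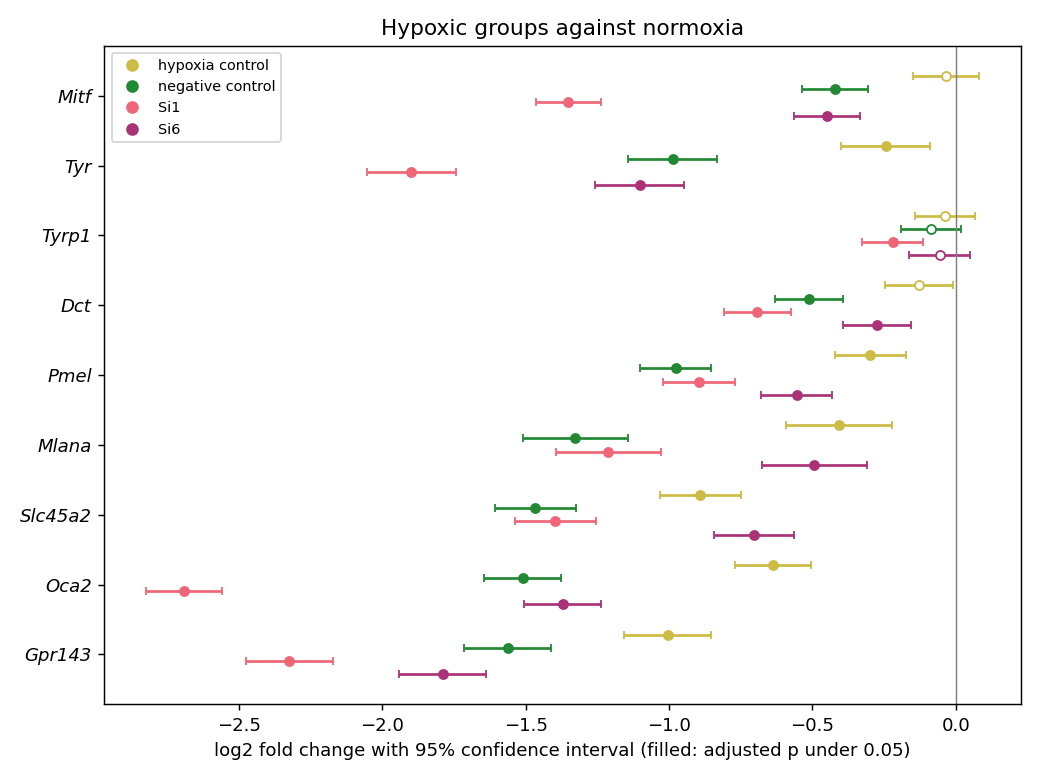
Log2 fold change of each gene (rows) in the 4 hypoxic groups against normoxia, with 95% confidence intervals from limma; filled points passed the test. Every point lies below 0; siRNA 1 is the lowest for Tyrp1 and Dct and, by wider margins, for Mitf, Tyr, Oca2 and Gpr143, at -1.35, -1.90, -2.69 and -2.32, and Tyrp1 moved least.

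Mitf did not pass the test between normoxia and the hypoxia control, was lower in the negative control and siRNA 6 groups, and was lowest with siRNA 1. It read 11.49, 11.48 and 11.58 under normoxia (replicates a, b and c), 11.48, 11.45 and 11.53 in hypoxia control cells, 11.12, 11.09 and 11.08 in negative control cells, 10.19, 10.21 and 10.10 with siRNA 1 and 11.04, 11.15 and 11.02 with siRNA 6. The normoxia and hypoxia control arrays overlapped, all negative control and siRNA 6 arrays lay below both of them and overlapped each other, and the siRNA 1 arrays lay below all others. The hypoxia control differed from normoxia by -0.03 (95% interval -0.15 to 0.08, adjusted p = 0.758 by limma), and an interval that includes 0 does not show equality. With siRNA 1 Mitf was 1.90-fold lower than in the negative control (log2 -0.93 ± 0.05 SE, adjusted p = 2.2e-09 by limma). The siRNA 6 group differed from the negative control by -0.03 (interval -0.14 to 0.09, adjusted p = 0.766), and siRNA 1 was 1.87-fold below siRNA 6 (adjusted p = 6.9e-09). In order of level, the steps from normoxia to the hypoxia control and from the negative control to siRNA 6 did not pass the test. The other steps passed it.

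In the tyrosinase family, 3 related enzymes, the range of group means was 1.90 for Tyr, 0.69 for Dct and 0.22 for Tyrp1. The probe sets of Dct and Tyrp1 read brighter than 99.95% and 99.98% of genes, and that of Tyr than 93.7%. Whether signals that bright narrow the measured differences was not tested. Tyr, the rate-limiting oxidase, read 11.30, 11.27 and 11.27 under normoxia, 10.98, 11.00 and 11.13 in hypoxia control cells, 10.28, 10.30 and 10.30 in negative control cells, 9.55, 9.25 and 9.34 with siRNA 1 and 10.17, 10.28 and 10.08 with siRNA 6. The normoxia arrays were above all others and the siRNA 1 arrays below all others, and only the negative control and siRNA 6 overlapped. Against the negative control Tyr was 1.88-fold lower with siRNA 1 (log2 -0.91 ± 0.07 SE, adjusted p = 7.6e-08 by limma). With siRNA 6 it differed by -0.12 (interval -0.27 to 0.04, adjusted p = 0.288). Against normoxia its signal was 26.8% with siRNA 1, 46.6% with siRNA 6 and 50.5% in negative control cells.

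Dct, the dopachrome tautomerase that steers intermediates towards eumelanin, read 13.30 to 13.36 under normoxia, 13.15 to 13.24 in hypoxia control cells, 12.75 to 12.90 in negative control cells, 12.55 to 12.71 with siRNA 1 and 13.03 to 13.09 with siRNA 6. The arrays of no pair of groups overlapped, although the steps from normoxia to the hypoxia control and from there to siRNA 6 did not pass the test (adjusted p = 0.130 and 0.060 by limma). The siRNAs moved it in opposite directions from the negative control, by -0.18 with siRNA 1 (adjusted p = 0.018 by limma) and by 0.24 with siRNA 6 (adjusted p = 0.004), and they differed from each other by -0.42 (adjusted p = 2.8e-05). The call for siRNA 1 was lost in 4 alternatives, among them those without negative control array c (adjusted p = 0.087) or siRNA 1 array b (0.092). Tyrp1, which acts on the late eumelanin intermediate and steadies tyrosinase, kept all 15 arrays between 12.88 and 13.16. Its fall with siRNA 1 against the negative control was -0.13 (adjusted p = 0.047), a call lost in 11 of 15 alternatives, including each omission of a single array, where its adjusted p ranged from 0.057 to 0.144. Its level with siRNA 1 was also below that with siRNA 6 (log2 difference -0.16, adjusted p = 0.020), a call lost without siRNA 1 array c (0.071) or siRNA 6 array b (0.107) and, at a difference of -0.05, after quantile normalization. Its range of group means, 0.22, was larger than that of only 38.4% of all genes, against 99.1% for Tyr and 84.3% for Dct.

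**Figure D2:**
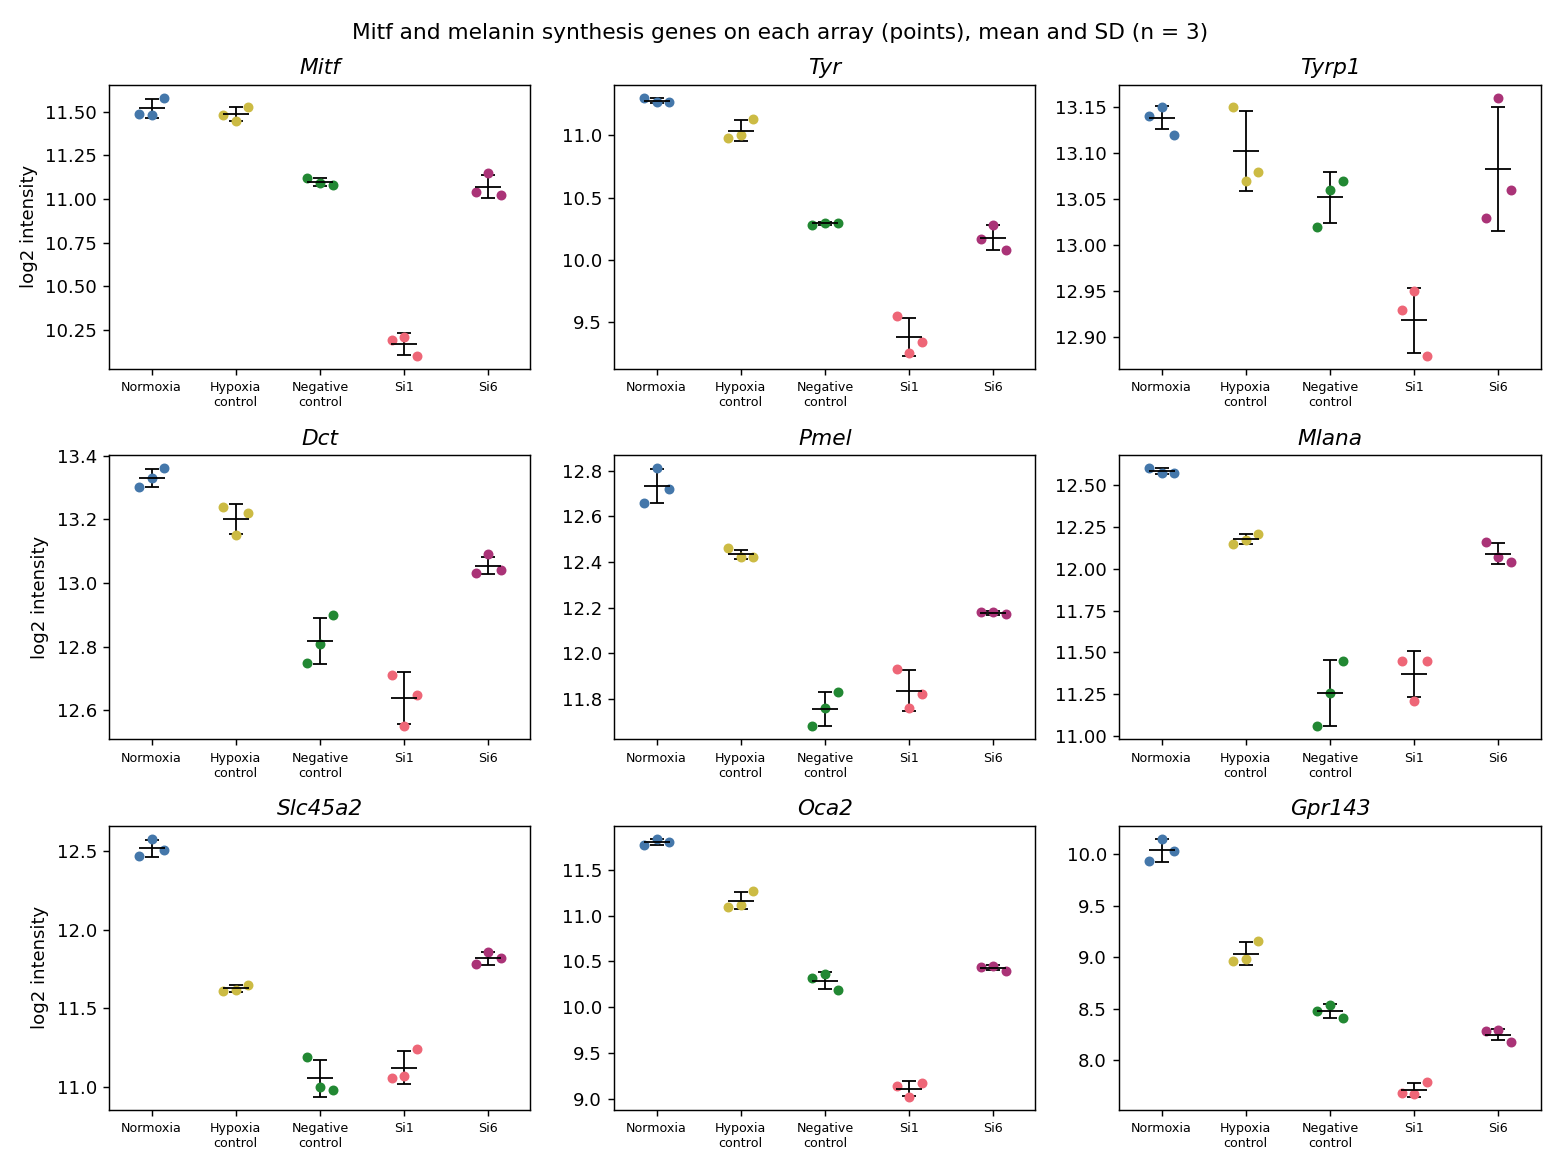
Log2 intensity of each of the 9 genes on every array (points; 3 per group), with the group mean and SD as bars; each panel has its own vertical scale. Mitf, Tyr, Tyrp1, Dct, Oca2 and Gpr143 are lowest with siRNA 1, while the Pmel, Mlana and Slc45a2 arrays of the negative control and siRNA 1 overlap and those of siRNA 6 are higher.

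Pmel, Mlana and Gpr143 fell in both hypoxic controls. In the siRNA groups Gpr143 fell further below the negative control while Pmel and Mlana rose with siRNA 6. Pmel, the fibril protein, read 12.66 to 12.81 under normoxia, 12.42 to 12.46 in hypoxia control cells, 11.68 to 11.83 in negative control cells, 11.76 to 11.93 with siRNA 1 and 12.17 to 12.18 with siRNA 6. The negative control and siRNA 1 overlapped and no other groups did. Against the negative control it rose with siRNA 6 by 0.42 (adjusted p = 3.8e-05 by limma) and differed by 0.08 with siRNA 1 (interval -0.04 to 0.21, adjusted p = 0.333).

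Mlana, a melanosomal membrane protein that binds Pmel and is needed for its maturation, read 12.60, 12.57 and 12.57 under normoxia, 12.15, 12.17 and 12.21 in hypoxia control cells, 11.06, 11.26 and 11.45 in negative control cells, 11.45, 11.21 and 11.45 with siRNA 1 and 12.16, 12.07 and 12.04 with siRNA 6. The siRNA 6 arrays overlapped those of the hypoxia control, and the siRNA 1 arrays those of the negative control. With siRNA 6 Mlana was 1.78-fold above the negative control (log2 0.83 ± 0.09 SE, adjusted p = 2.3e-06 by limma), and it differed from the hypoxia control by -0.09 (adjusted p = 0.518). With siRNA 1 it differed from the negative control by 0.12 (interval -0.07 to 0.30, adjusted p = 0.356). Its SD of 0.20 in negative control cells was the largest of the 9 genes in any group.

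Gpr143, a receptor of the melanosome membrane that governs organelle size and number and is mutated in ocular albinism, read 9.93, 10.15 and 10.03 under normoxia, 8.96, 8.98 and 9.16 in hypoxia control cells, 8.48, 8.54 and 8.41 in negative control cells, 7.68, 7.67 and 7.79 with siRNA 1 and 8.28, 8.29 and 8.18 with siRNA 6. No groups overlapped. It had the largest fall of the 9 genes in the hypoxia control, 2.01-fold (adjusted p = 8.1e-08 by limma), and was 1.70-fold lower with siRNA 1 than in the negative control (adjusted p = 3.9e-07). With siRNA 6 it fell by 0.23 (adjusted p = 0.024), which made it the one gene of the 9 that passed the test as lower with both siRNAs. The call for siRNA 6 was lost after subtracting each array's median, and without negative control array a or b or siRNA 6 array c, with the highest adjusted p at 0.096. Its signal was 20.0% of normoxia with siRNA 1 and 28.9% with siRNA 6.

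The measured transporters both fell in hypoxia and then parted. Slc45a2, a melanosomal transporter needed for normal pigmentation, read 12.47, 12.58 and 12.51 under normoxia, 11.61, 11.62 and 11.65 in hypoxia control cells, 11.19, 11.00 and 10.98 in negative control cells, 11.06, 11.07 and 11.24 with siRNA 1 and 11.78, 11.86 and 11.82 with siRNA 6. The siRNA 1 and negative control arrays overlapped, and the siRNA 6 arrays lay above the hypoxia control. It rose 1.70-fold with siRNA 6 against the negative control (log2 0.76 ± 0.07 SE, adjusted p = 3.6e-07 by limma) and was also above the hypoxia control, by 0.19 (adjusted p = 0.041). With siRNA 1 it differed by 0.07 (interval -0.07 to 0.21, adjusted p = 0.487).

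Oca2, the chloride channel protein of the melanosome, read 11.77, 11.84 and 11.80 under normoxia, 11.10, 11.12 and 11.27 in hypoxia control cells, 10.32, 10.36 and 10.19 in negative control cells, 9.14, 9.02 and 9.17 with siRNA 1 and 10.44, 10.45 and 10.40 with siRNA 6. No groups overlapped. With siRNA 1 it was 2.27-fold below the negative control (log2 -1.18 ± 0.06 SE, adjusted p = 8.8e-10 by limma), and 2.50-fold below siRNA 6 (adjusted p = 7.2e-10). With siRNA 6 its 3 arrays lay above those of the negative control, by 0.14, and this did not pass the test (interval 0.01 to 0.27, adjusted p = 0.116). Of the 9 genes it had the largest range of group means, 2.69, larger than that of 99.8% of all genes, and its signal with siRNA 1 was 15.5% of normoxia.

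**Figure D3:**
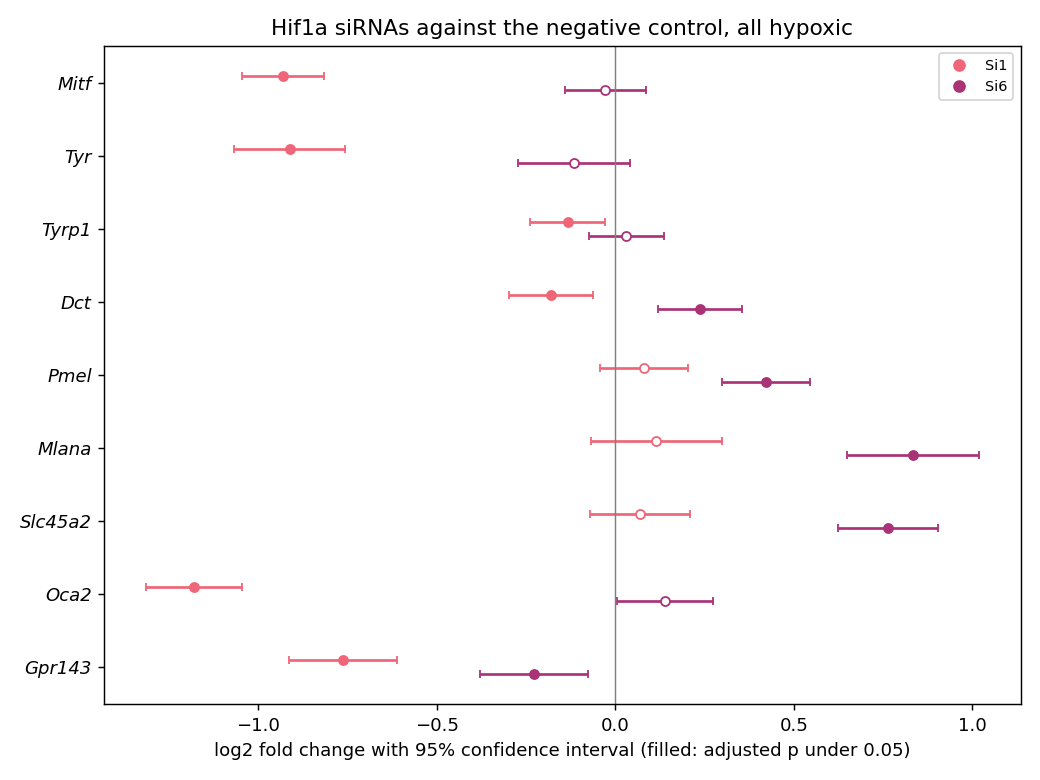
Log2 fold change of each gene (rows) with siRNA 1 and with siRNA 6 against the hypoxic negative control, with 95% confidence intervals from limma; filled points passed the test. With siRNA 1, Mitf, Tyr, Oca2 and Gpr143 lie between -0.76 and -1.18; with siRNA 6, Pmel, Mlana and Slc45a2 lie between 0.42 and 0.83.

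The profiles of the 9 genes over the 5 group means, each centred on its own mean, gave a description of which genes moved alike. The nearest pairs were Dct with Pmel (root mean square difference 0.15), Mlana with Slc45a2 (0.16) and Pmel with Mlana (0.17). Over all genes, 790 lay nearer to Dct than Pmel did, 9 nearer to Mlana than Slc45a2 did and 123 nearer to Pmel than Mlana did. Of the 9, Mitf was nearest to Tyr (0.25), though 320 genes lay nearer to Mitf. Tyr lay 0.26 from Oca2, with 80 genes nearer to Tyr, and Tyrp1 and Oca2 were farthest apart (0.83). These distances depend on how far a gene moved as well as on its pattern, and all points share the same 15 arrays. Among all genes, the 5 nearest to Mitf were Lrrc61 (0.06), Efcab7 (0.06), 2610035D17Rik (0.08), Spry1 (0.08) and Gpm6a (0.08). Lrrc61, for example, read 9.59 under normoxia, 9.41 in hypoxia control cells, 9.01 in negative control cells, 8.11 with siRNA 1 and 9.02 with siRNA 6. The 5 nearest to Tyr were Art3 (0.06), Dstyk (0.09), Cdhr4 (0.11), Pdk2 (0.12) and Aff3 (0.14). A second, dimmer Dstyk probe set differed from the negative control by 0.45 with siRNA 1 and 0.53 with siRNA 6, opposite in sign to the one used.

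Of the Mitf relatives Tfe3, Tfeb and Tfec, which bind the same E-boxes, 1 of 3 rose with siRNA 1 and 1 with siRNA 6 against the negative control, and none fell. Over all genes 20.2% rose with siRNA 1 and 17% with siRNA 6, and with 3 genes these counts are near the background. Tfe3 rose by 0.31 with siRNA 1 (adjusted p = 0.00033 by limma) and differed by -0.07 with siRNA 6 (adjusted p = 0.383). Tfeb rose by 0.24 with siRNA 6 (adjusted p = 0.024) and differed by 0.12 with siRNA 1 (adjusted p = 0.275). Against normoxia, both Tfeb (-0.48) and Tfe3 (-0.16) were lower in the negative control. In the hypoxia control neither passed the test (-0.17 and -0.14).

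Of 13 measured genes reported to act on Mitf or together with it, 3 rose and 4 fell in the hypoxia control against normoxia. In the negative control against normoxia, 2 rose and 6 fell. The shares over all genes were 9.87% higher and 11.2% lower in the former and 14.6% higher and 15.7% lower in the latter. Against the negative control, 2 rose and 6 fell with siRNA 1 (20.2% of all genes higher, 14.8% lower), and 3 rose and 4 fell with siRNA 6 (17% higher, 11.9% lower). Irf4, which acts with Mitf at the Tyr gene, read 9.44 under normoxia, 8.55 in hypoxia control cells and 7.20 in negative control cells. It was 7.91 with siRNA 1 and 8.13 with siRNA 6, a rise over the negative control of 0.72 (adjusted p = 3.1e-07 by limma) and 0.94 (adjusted p = 3.9e-08), so it rose with siRNA 1 where Tyr and Mitf fell. Kit, the receptor for stem cell factor that signals to Mitf, rose with siRNA 6 by 1.11 (adjusted p = 2.1e-06) and differed by 0.02 with siRNA 1 (adjusted p = 0.927). Bhlhe40, a repressor induced by hypoxia and reported in human melanoma cells to repress MITF, rose 1.92-fold in the hypoxia control (adjusted p = 9.7e-09) and fell with siRNA 1 by 0.37 and with siRNA 6 by 0.31. Its relative Bhlhe41 fell against normoxia, by 0.41 in hypoxia control cells and by 1.21 in negative control cells, and differed from the negative control by -0.04 with siRNA 1 and 0.10 with siRNA 6, neither past the test.

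Of 11 measured further genes of melanin synthesis, its control and Pmel processing, 2 rose and 5 fell in hypoxia control cells against normoxia, where 9.87% of all genes were higher and 11.2% lower. Against the negative control, 4 rose and 5 fell with siRNA 1 (all genes: 20.2% higher, 14.8% lower), and 5 rose and 2 fell with siRNA 6 (17% higher, 11.9% lower). Slc7a11, which imports cystine, the source of the sulphur in the red-yellow pigment pheomelanin, rose 4.33-fold with siRNA 1 (adjusted p = 8.2e-12 by limma) and 3.82-fold with siRNA 6 (adjusted p = 4.2e-11). Its second, dimmer probe set, with a mean of 4.20, differed by 0.00 with either siRNA. Bace2, a protease that cleaves Pmel, fell to 68.4% of normoxia in the hypoxia control and to 26.1% in the negative control. Against the negative control it fell by 0.30 with siRNA 1 and rose by 0.29 with siRNA 6. Mc1r, the melanocortin receptor that raises cyclic AMP, rose by 0.34 in the hypoxia control and fell with both siRNAs, by 0.72 and 0.34. Mfsd12, which carries cysteine into melanosomes, rose by 0.61 with siRNA 1 and 0.50 with siRNA 6.

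Of 15 measured genes reported as Mitf targets outside melanin synthesis, 2 rose and 9 fell in the hypoxia control against normoxia, beside 9.87% higher and 11.2% lower over all genes. With siRNA 1, 4 rose and 6 fell against the negative control (20.2% higher and 14.8% lower over all genes), and with siRNA 6, 4 rose and 3 fell (17% higher and 11.9% lower). The list holds Hif1a, the siRNAs' own target, which is 1 of the genes that fell in both counts by design, and 1 of the genes that rose in the hypoxia control. Ednrb, the endothelin receptor, fell by 1.19 with siRNA 1 and rose by 1.01 with siRNA 6 (difference -2.20, adjusted p = 6.5e-10 by limma). Rab27a, which ties melanosomes to their motor, fell to 60.9% of normoxia in the hypoxia control and to 25.1% in the negative control. Against the negative control it differed by 0.00 with siRNA 1 and rose by 0.51 with siRNA 6. Trpm1, a cation channel gene reported as a Mitf target, fell by 1.35 in the negative control against normoxia. With siRNA 1 it differed by 0.26 from the negative control, by -0.38 from the hypoxia control and by -1.09 from normoxia. The reported targets included genes that rose and genes that fell with siRNA 1 against the negative control. The part of Mitf in these changes was not tested.

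**Figure D4:**
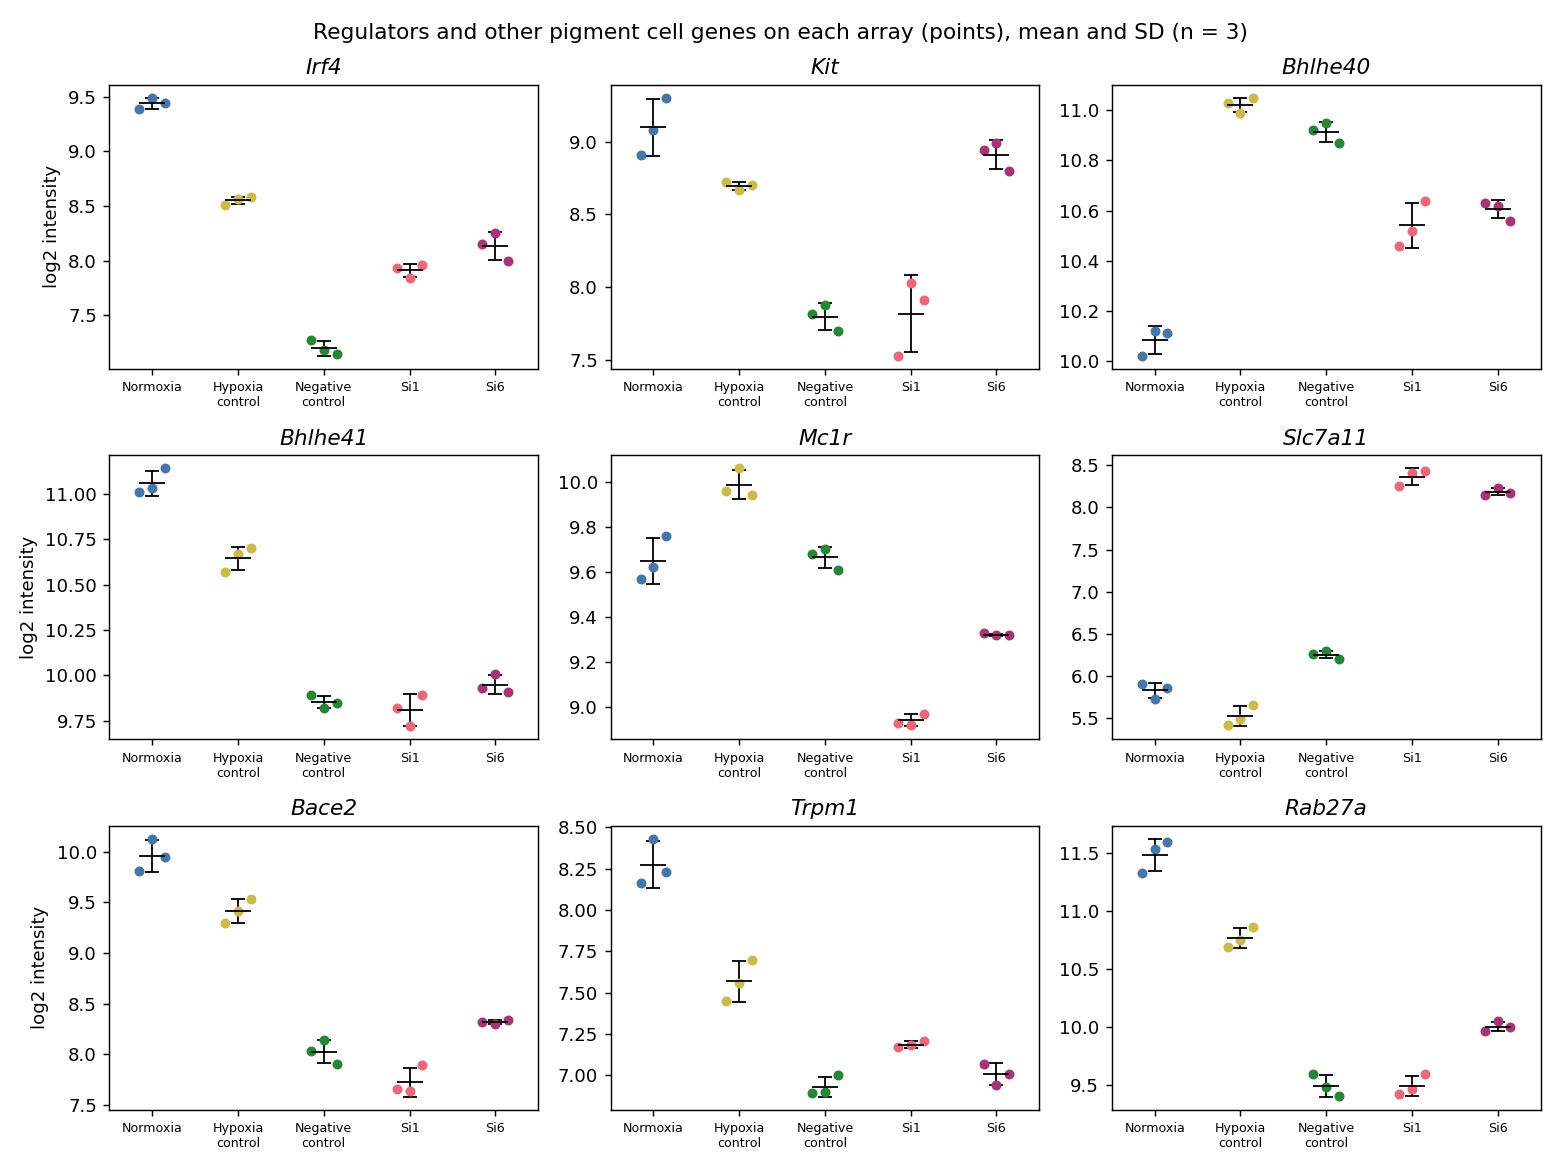
Log2 intensity on every array (points; 3 per group), with group mean and SD as bars, for 9 other genes of the lists; each panel has its own vertical scale. Slc7a11 is high with both siRNAs, Irf4 is lowest in the negative control, Kit is higher with siRNA 6 than in the negative control or with siRNA 1, and Bhlhe40 is lowest in normoxia.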

How the data were processed

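Levels came from 15 Affymetrix arrays, 5 groups of 3 described as biological replicates, per the labels. The authors deposited log2 intensities per probe set, with RMA and Partek named in the submitters' processing notes; other settings were not given in these sources. Of 41345 probe sets, 23521 had exactly 1 gene symbol, 1814 several and 16010 none in the platform annotation. Each of 22180 genes was read from its probe set with the highest mean; 1082 genes had more than 1. Array medians ranged from 6.52 to 6.61, and correlations between arrays from 0.993 to 0.996 within groups and from 0.978 to 0.993 between groups. No scan batch was named in the labels. The number of arrays limits the precision.

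One linear model with a mean for each of the 5 groups was fitted across the 15 arrays (lmFit and eBayes of limma 3.58.1, run in R 4.3.3). Tests were two-sided, p-values were adjusted by Benjamini-Hochberg across the 22180 genes, and the threshold was 0.05; the median SE of a log2 difference was 0.08. All adjusted p-values are from this fit, which was tested on simulated data. Intervals are 95% and unadjusted. Alternatives changed normalization, gene filter, probe set rule, variance model, arrays and blocking.

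The genes of interest, the lists and the markers were chosen with earlier results of these data known. From each list up to 4 genes past the test with the largest change in the negative control against normoxia, or in either siRNA against the negative control, were named, with the 5 genes nearest to Mitf and to Tyr over the 5 group means. Promoter sequences are RefSeq's, on GRCm38.p6; 4 of the 10 genes had no match in that table.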

Additional observations from a re-analysis of the deposited data

Results flagged for a closer look

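Each of the 9 measured genes differed between the siRNAs against Hif1a, which share a target and a protocol, by a direct test of siRNA 1 against siRNA 6 (limma, adjusted over all genes). Over all genes, 13.4% were lower with siRNA 1 and 14.5% higher. The log2 difference was -1.32 for Oca2, -0.90 for Mitf, -0.80 for Tyr, -0.72 for Mlana, -0.69 for Slc45a2, -0.54 for Gpr143, -0.42 for Dct, -0.34 for Pmel and -0.16 for Tyrp1, and siRNA 1 was lower in all 9. The smallest of these, for Tyrp1, has an adjusted p of 0.020. Hif1a itself was at 25.3% of the negative control with siRNA 1 and 30.7% with siRNA 6. The part of that gap in the pigment gene differences was not tested.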

How the results depend on the processing

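The results were recomputed under 24 alternative settings. All 120 counts of genes past the test stayed within 1.5 times the reported count: 5 to 7 in the hypoxia control against normoxia, 8 in the negative control against the hypoxia control, 8 to 9 in the negative control against normoxia, 4 to 6 for either siRNA against the negative control, 8 to 9 between siRNAs, and 9 and 8 for siRNA 1 and siRNA 6 against normoxia. Of 1080 single-gene values, 1046 kept direction and side of the threshold, 28 lost the call, 3 gained it and 3 changed sign. The gene filters, probe set rule, eBayes setting, replicate block and fits of only the compared groups could not change these log2 differences. Under those settings only the call could move. The sign changes were all of values that did not pass the test, with siRNA 6 against the negative control: Tyrp1 became -0.023 after quantile normalization, Mitf became 0.0116 after subtracting each array's median, and Tyrp1 ranged from -0.0075 to 0.0555 when one array was left out, the negative value without siRNA 6 array b. Lost calls concerned Tyrp1 with siRNA 1 against the negative control (11 settings) and against siRNA 6 (4), Dct with siRNA 1 (4), Gpr143 with siRNA 6 (4) and Tyr in the hypoxia control (5); the cause was not tested. With eBayes set to both a mean-variance trend and robust estimation, Dct in the hypoxia control (adjusted p = 0.0165), Oca2 with siRNA 6 (0.0417) and Tyrp1 in the negative control against normoxia (0.0386) gained the call. In 3 of 30 same-letter pairs the deviations from group means correlated above 0.1. These correlations ran from -0.22 to 0.21 for the same letter and from -0.22 to 0.23 for different letters. They gave no sign that the replicate letters pair the samples, and the labels do not say whether the letters mark a shared day. With the letter as a replicate block, the count for siRNA 1 against the negative control went from 6 to 5, as Tyrp1 reached an adjusted p of 0.066, and no other count changed.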
